A study of Mus musculus with 6 samples.

Results

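The laminin and nidogen genes described here are Lama2, Lama3, Lama4, Lama5, Lamb1, Lamb2, Lamb3, Lamc1 and Nid1, 9 of the 23458 genes named on the array, taken with all their probes. They had 17 of the 56605 probes. All 17 were well above background on every array of at least 1 genotype, and 15 could be tested; the other two, 1 each of Lamb1 and Lamc1, had too few usable spots. Expression was measured on single-colour whole-genome arrays in colon of 6 male mice, 3 labelled control and 3 labelled Islr knockout. Islr encodes a secreted protein with leucine-rich repeats and an immunoglobulin domain. The sample source states that all mice, controls included, drank 3.5% dextran sulfate sodium for 5 days and recovered for 1 day. This polysaccharide injures the colonic epithelium. A separate treatment field of the labels states that there was none. Strain, age, the kind of knockout allele and whether it acts in every cell are not given in the sources used here, and the design text speaks of flow separation into TRIzol without naming a gate.

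Laminins are trimers of an alpha, a beta and a gamma chain that assemble into the sheet of basement membrane on which epithelium, endothelium and muscle rest. Nidogens are linkers that join laminin to the collagen IV network. In the gut the chains differ by place: those of Lama3 and Lamb3 belong to the laminin that anchors epithelial cells through integrin and hemidesmosomes, Lama5 is the main alpha chain under mature epithelium, Lama4 is typical of blood vessels and Lama2 of muscle, nerve and crypt-base stroma. Lamb1 and Lamc1 are the widely used beta and gamma chains, and Lamb2 is another beta chain.

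Probes for Lama2, Lama4, Lama5, Lamb1, Lamb2, Lamc1 and Nid1 were lower in the knockout, whereas those for Lama3 and Lamb3 were higher. Among the 15 tested probes 11 were lower and 4 higher. In limma at a 5% false discovery rate 3 passed, both Lama2 probes and 1 Lamc1 probe, and all 3 were lower. At an unadjusted p under 0.05 in limma there were 9 lower and 3 higher. Of the Lama2 probes, A_55_P2730756 entered the test through the controls alone, as no knockout value was well above background. With only probes well above background on all 6 arrays, 2 of 13 member probes passed, 0 of them higher, as did 1050 of all 31866 probes. Over all 35351 tested probes 3.97% passed in either direction, with 2.42% lower and 1.55% higher, and at an unadjusted p under 0.05 the shares were 14.1% lower and 12.8% higher. Among the 10 member probes with 6 usable values, the genotypes did not overlap for 7 that were lower and 2 that were higher. Of all 30240 such probes, 18.0% were lower and 16.5% higher without overlap, 34.5% in all. By gene, with the brightest tested probe, 7 members were lower and 2 higher, with a median of -0.81 on the log2 scale, against a median of 0.01 over all 16448 tested genes. By that probe 2 member genes passed, both lower, where 3.82% of all tested genes passed.

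Islr itself was lower in the knockout. Relative to the 75th percentile of each array, which is the zero of every log2 level given here, its probe read 1.24 (replicate 2) and 1.21 (replicate 3) in the controls, against -1.40, -0.93 and -1.31 in the knockouts. The difference was -2.44 (SE 0.21, adjusted p 0.0171); control replicate 1 was an outlier spot and left out of it. Without knockout replicate 3 the adjusted p was 0.0580. The 75th percentile lay at 6353 to 7110 intensity units in controls and at 4910.5 to 5820 in knockouts, and knockout replicate 1 had both the lowest value and the largest share of outlier spots (16.0%, against 3.26% to 13.6%). All markers of epithelium, fibroblasts, endothelium and smooth muscle in the lists used here were well above background on all 6 arrays. Probes differ in brightness, so no level is compared between genes.

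RefSeq promoters were used for 6 of the 9 members, and not for Lama3, Lama4 and Lamc1. The higher side is therefore represented by Lamb3 alone. Promoters of 4 members from both sides of the split are shown: Lama2, Lamb1 and Nid1 read lower and Lamb3 higher. Each is the 250 bases before a transcript start in assembly GRCm38.p6, written 5′ to 3′ on the strand of the gene. Capitals mark matches on either strand to 5 motifs. They are the GC box (GGGCGG), the CCAAT box spelled as its name, the TATA box (TATAAA), the AP-1 site of the Fos and Jun factors (TGANTCA) and the site of TEAD factors (GGAATG). None of these matches overlapped one of another motif in the stretches shown.
Lama2: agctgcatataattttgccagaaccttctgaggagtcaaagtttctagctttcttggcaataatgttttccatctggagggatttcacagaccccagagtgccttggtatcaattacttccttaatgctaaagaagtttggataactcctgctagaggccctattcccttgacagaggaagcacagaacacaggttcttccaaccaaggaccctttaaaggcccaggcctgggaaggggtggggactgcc
Lamb1: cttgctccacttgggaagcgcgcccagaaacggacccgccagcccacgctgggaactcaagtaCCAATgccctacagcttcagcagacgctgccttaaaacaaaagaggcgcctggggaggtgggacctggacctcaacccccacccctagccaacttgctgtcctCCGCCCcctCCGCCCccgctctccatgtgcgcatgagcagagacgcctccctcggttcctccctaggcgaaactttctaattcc
Nid1: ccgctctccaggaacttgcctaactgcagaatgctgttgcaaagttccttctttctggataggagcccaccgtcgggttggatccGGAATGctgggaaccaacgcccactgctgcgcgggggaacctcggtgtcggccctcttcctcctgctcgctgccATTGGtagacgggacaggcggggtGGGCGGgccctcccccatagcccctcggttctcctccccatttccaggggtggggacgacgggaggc
Lamb3: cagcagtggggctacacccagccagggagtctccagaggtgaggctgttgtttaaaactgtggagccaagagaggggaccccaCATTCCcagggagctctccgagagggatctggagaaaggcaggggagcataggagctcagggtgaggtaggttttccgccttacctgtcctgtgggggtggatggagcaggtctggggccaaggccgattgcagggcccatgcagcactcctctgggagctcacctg
The Lama2 stretch lies at chr10:27616943-27617192 on the minus strand, and the others are on the plus strand, Lamb1 at chr12:31265043-31265292, Nid1 at chr13:13437352-13437601 and the downstream of both listed Lamb3 starts at chr1:193301993-193302242. GC content was 47.2% for Lama2, 62.0% for Lamb1, 64.4% for Nid1 and 61.2% for Lamb3, with a median of 52.4% over all listed promoters. Lamb1 held 2 GC boxes and 1 CCAAT box, and Nid1 held 1 of each and 1 TEAD match. The Lama2 stretch held none of the 5 motifs and that of Lamb3 1 TEAD match. The stretch before the upstream Lamb3 start, not shown, held none. Of the lower members not shown, Lama5 held 4 GC boxes and Lamb2 none of the motifs. Over 32851 promoters of this length, 32.7% held a GC box, 33.8% CCAAT, 12.4% TATAAA, 6.75% AP-1 and 12.6% the TEAD motif. As the Lama2 stretch held none, no motif could be common to all 3 of the shown stretches from members that read lower. The matches describe sequence only.

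Lama2, the alpha chain of muscle, nerve and stromal basement membranes, fell at its brighter probe and read lower at its dim one. At its brighter probe (A_55_P2158946) the log2 level was 1.12, 0.35 and -0.04 in the 3 controls, in replicate order as throughout, and -1.99, -1.32 and -1.09 in the 3 knockouts. Every knockout lay below every control, although the controls themselves spread over more than a log2 unit. The mean was 0.48 ± 0.59 (SD, n = 3) in controls and -1.47 ± 0.47 (SD, n = 3) in knockouts. The difference was -1.94 (SE 0.36, adjusted p 0.0441), a 3.85-fold lower signal. The other Lama2 probe (A_55_P2730756) was close to background: it read -4.85, -4.93 and -4.95 in controls, and none of its knockout values (-5.65, -5.71 and -5.69) was well above background. Its signal was at least 1.51-fold higher in controls, where a knockout value counts as the lowest signal well above background on that array. This bound was not tested. The adjusted p of 0.0396 in limma belongs to the measured difference of -0.77, which used these knockout values near background. The probe entered the test through the controls alone. Its measured difference of -0.77 shrank to -0.31 under normexp background correction with the 75th percentile, with its call lost. In all, the dim probe was called under 3 of 9 other settings on all 6 arrays.

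Lamc1, the gamma chain shared by most laminins, fell as well. Its probe A_55_P1981381 gave 1.86, 1.63 and 1.79 in controls but 0.18, 0.76 and 0.86 in knockouts. The groups were well apart, with knockout replicate 1 lowest. From 1.76 ± 0.12 (SD, n = 3) to 0.60 ± 0.37 (SD, n = 3), the difference was -1.16 (SE 0.22, adjusted p 0.0441), a 2.24-fold lower signal. The second Lamc1 probe (A_66_P130669) had outlier spots on 3 arrays and was not tested; with these kept it read 1.64, 1.34 and 1.21 in controls and -0.84, 0.23 and -0.28 in knockouts, a difference of -1.69 (adjusted p 0.0341 in the fit with outlier spots kept). All 3 calls were fragile to single arrays. Without control replicate 1 the brighter Lama2 probe stayed called (difference -1.62, adjusted p 0.0461), while Lamc1 (adjusted p 0.0584) and the dim Lama2 probe (0.050, just over the threshold) did not; without any one of the other 5 arrays none of the 3 probes passed, with adjusted p of 0.0599 to 0.133. Over all 6 fits that left out 1 array, the differences of the brighter Lama2 probe ranged from -2.20 to -1.62. Those of the called Lamc1 probe ranged from -1.29 to -0.95.

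**Figure D1:**
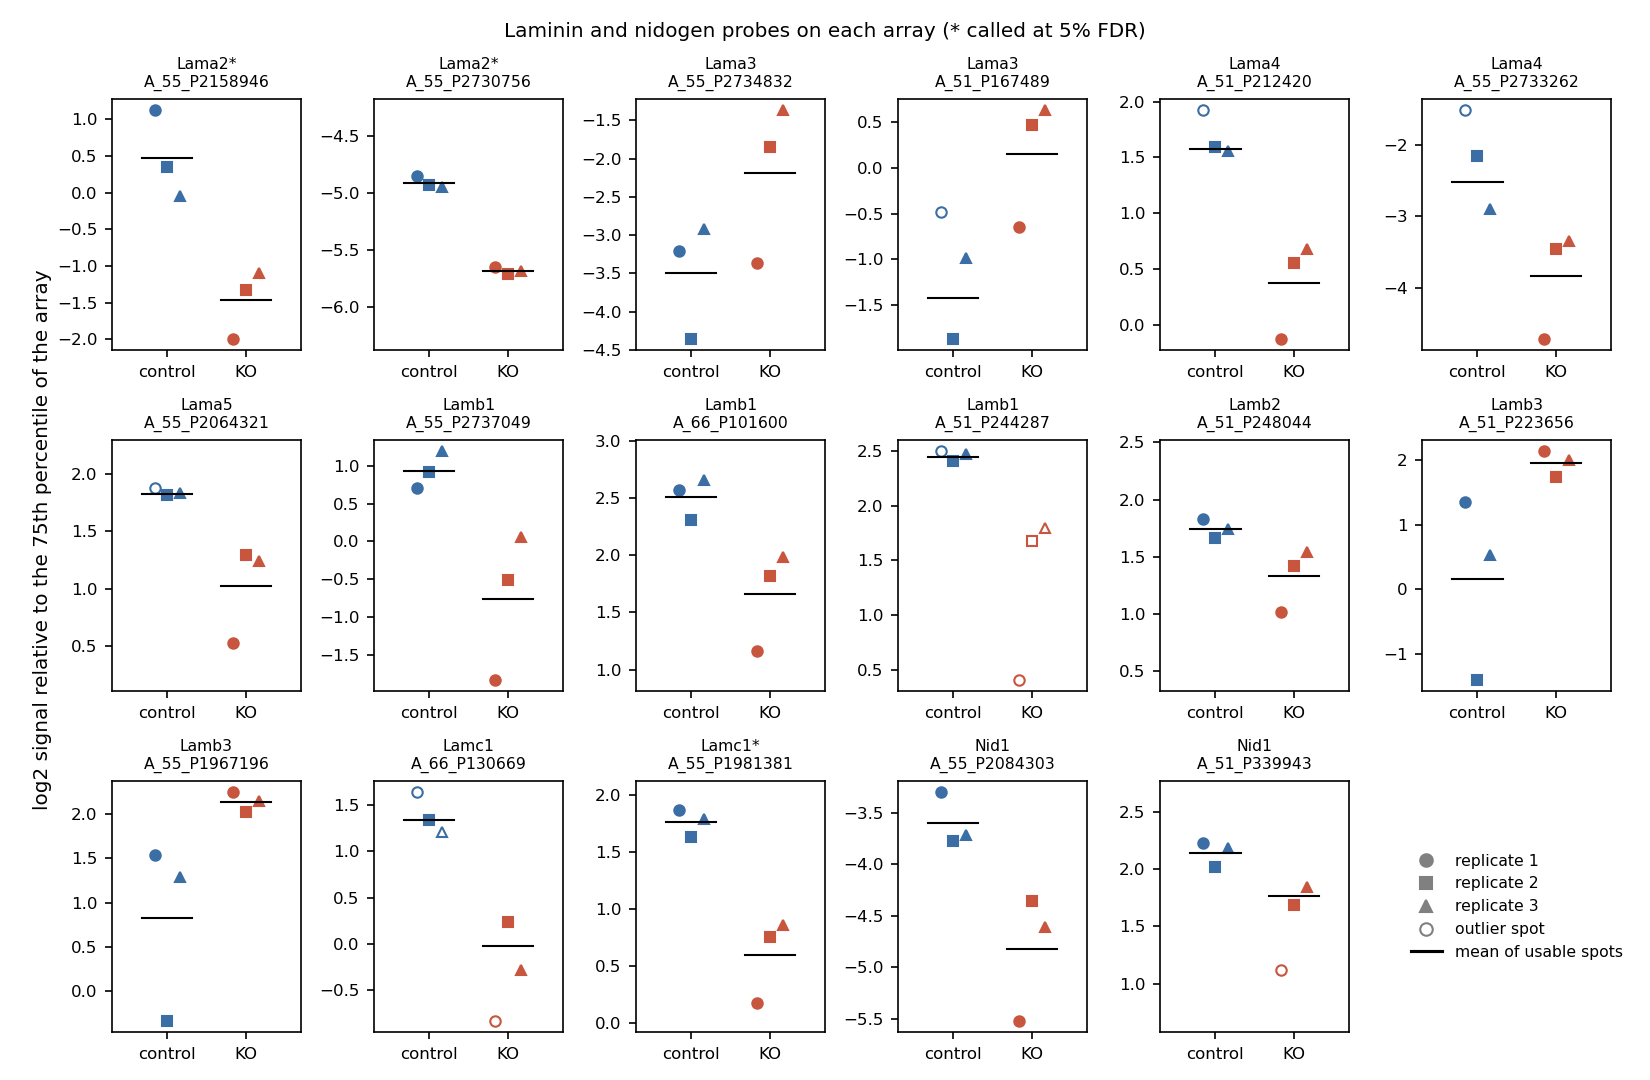
Log2 signal relative to the 75th percentile of the array (y axis) of all 17 member probes in 3 control and 3 Islr knockout (KO) colons; markers are replicates, open markers outlier spots left out of the test, bars means of usable spots, and an asterisk a call at a 5% false discovery rate. Lama2 and Lamc1 lie lower in every knockout, and both Lamb3 probes lie higher in every knockout, with control replicate 2 far below the other controls.

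Lama4, the alpha chain of vascular basement membrane, was lower at both probes without passing the test. The brighter one (A_51_P212420) read 1.6 and 1.56 in control replicates 2 and 3 and -0.13, 0.56 and 0.68 in knockouts, with control replicate 1 an outlier spot at 1.92. No knockout reached the level of a control. The difference was -1.21 (SE 0.29, 95% confidence interval -1.91 to -0.50, adjusted p 0.0727), and with the outlier spot kept it was -1.32 and passed (adjusted p 0.0414). The dimmer probe (A_55_P2733262) differed by -1.31 (SE 0.49, adjusted p 0.159), with -2.16 and -2.90 in the 2 usable controls and -4.72, -3.46 and -3.35 in knockouts.

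Lamb1, the beta chain that pairs with Lamc1 in most tissues, was lower at all 3 probes, and neither tested probe passed. At A_55_P2737049 the controls read 0.71, 0.92 and 1.19 and the knockouts -1.84, -0.51 and 0.06, a difference of -1.70 (SE 0.47, adjusted p 0.0829). At A_66_P101600 the controls read 2.57, 2.31 and 2.66 and the knockouts 1.16, 1.82 and 1.99, a difference of -0.85 (SE 0.25, adjusted p 0.0931). The groups were apart at both probes, and knockout replicate 1 was the lowest array at each. The third probe (A_51_P244287) was an outlier spot on all 3 knockout arrays; with these kept its values were 2.5, 2.41 and 2.47 in controls and 0.41, 1.68 and 1.80 in knockouts.

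Nid1, the linker between laminin and collagen IV, was also lower at both probes, by unequal amounts. Its bright probe (A_51_P339943) read 2.23, 2.02 and 2.19 in controls and 1.69 and 1.85 in knockout replicates 2 and 3 (an outlier spot at 1.12 in replicate 1), and differed by -0.38 (SE 0.18, 95% confidence interval -0.81 to 0.06, adjusted p 0.237). Its dim probe (A_55_P2084303) read -3.30, -3.78 and -3.71 in controls and -5.52, -4.35 and -4.61 in knockouts, and differed by -1.23 (SE 0.33, adjusted p 0.0773). The lowest of these was not well above background, so the size at the dim probe is uncertain.

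The remaining members on the lower side were Lama5, the alpha chain under mature epithelium, and Lamb2. Lama5 read 1.82 and 1.84 in control replicates 2 and 3 and 0.52, 1.29 and 1.24 in knockouts, a difference of -0.81 (SE 0.28, 95% confidence interval -1.51 to -0.11, adjusted p 0.144). Lamb2 read 1.83, 1.66 and 1.74 in controls and 1.01, 1.42 and 1.54 in knockouts, a difference of -0.42 (SE 0.19, 95% confidence interval -0.86 to 0.03, adjusted p 0.207). Neither passed, although no knockout overlapped a control at either gene.

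Lama3 and Lamb3, the alpha and beta chains of the anchoring laminin of epithelium, went the other way. The Lamb3 probe A_55_P1967196 read 1.53, -0.34 and 1.28 in controls but 2.25, 2.02 and 2.15 in knockouts. The knockouts were tightly grouped above all controls, and control replicate 2 stood far below the other 2. The difference was 1.31 (SE 0.48, 95% confidence interval 0.17 to 2.45, adjusted p 0.141). The second Lamb3 probe (A_51_P223656) showed the same order, with 1.35, -1.40 and 0.54 in controls and 2.13, 1.74 and 2.0 in knockouts, a difference of 1.80 (SE 0.65, adjusted p 0.141). Without control replicate 2 the differences of these probes were 0.73 (adjusted p 0.168) and 1.02 (adjusted p 0.180). Most of the spread among controls came from that array.

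For Lama3 the brighter probe (A_51_P167489) read -1.87 and -0.98 in control replicates 2 and 3 and -0.65, 0.47 and 0.63 in knockouts, a difference of 1.58 (SE 0.48, adjusted p 0.110). The outlier spot of control replicate 1 read -0.48, which lay above knockout replicate 1, so with it the groups overlapped and the difference was 1.26. The other probe (A_55_P2734832) overlapped outright, with -3.21, -4.36 and -2.92 in controls and -3.36, -1.85 and -1.37 in knockouts (difference 1.3, SE 0.59, 95% confidence interval -0.11 to 2.71, adjusted p 0.216). With the outlier spot kept, knockout replicate 1 thus lay within the range of the 3 controls at both Lama3 probes and above it at both Lamb3 probes. Control replicate 2 was the lowest array at all 4 probes of these chains.

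**Figure D2:**
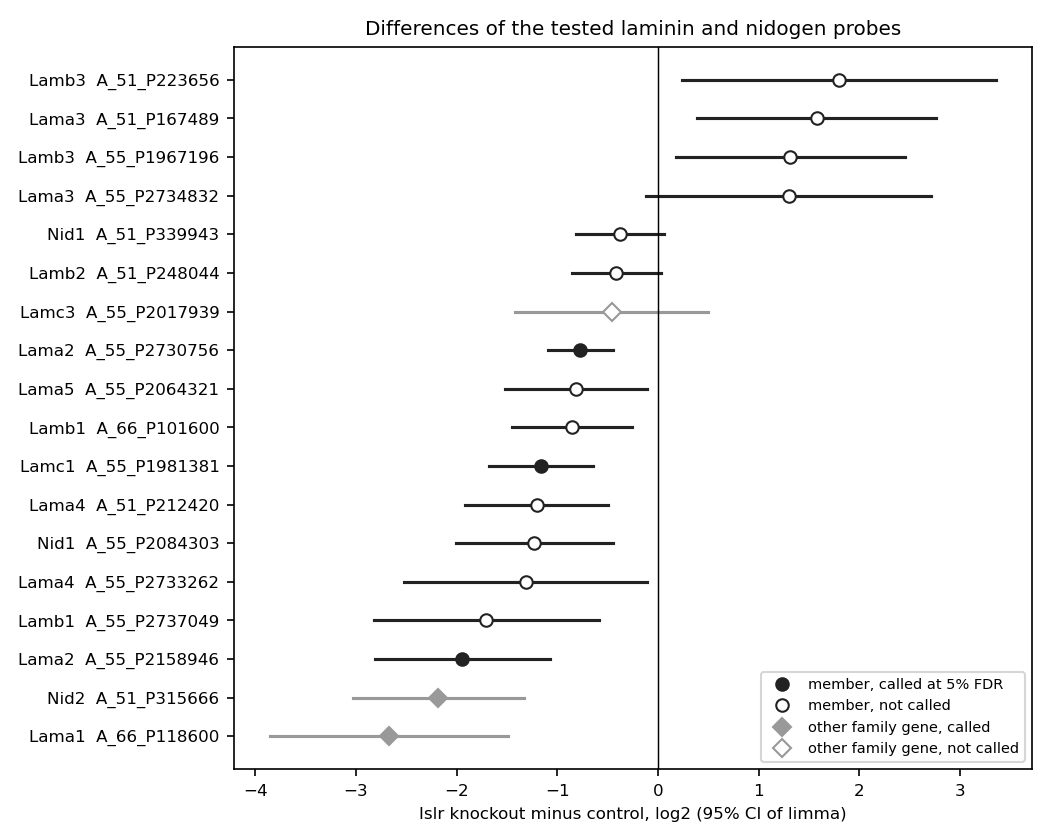
Difference between Islr knockout and control on the log2 scale (x axis) with the 95% confidence interval of limma, for the 15 tested member probes (circles) and Lama1, Lamc3 and Nid2 (diamonds); filled symbols passed at a 5% false discovery rate. Filled symbols stand only to the left of 0, from -2.67 at Lama1 to -0.77 at the dim Lama2 probe; Lama3 and Lamb3 lie to the right and are open.

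The 3 further laminin and nidogen genes listed, Lama1, Nid2 and Lamc3, held the 2 largest falls among the laminin and nidogen genes described here. Lama1, an alpha chain best known from the embryo, read 1.12, 1.06 and 0.88 in controls and -2.86, -0.89 and -1.20 in knockouts, a difference of -2.67 (SE 0.49, adjusted p 0.0434). Nid2, the second nidogen, read -0.15, -0.41 and -0.51 in controls and -3.35, -2.0 and -2.27 in knockouts, a difference of -2.18 (SE 0.35, adjusted p 0.0357). Every knockout was more than a log2 unit below every control at both genes. Lamc3 differed by -0.46 (SE 0.40, adjusted p 0.502), with overlap.

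The arrays within a genotype were not interchangeable. With outlier spots kept, so that every array had a value, 13 of the 17 member probes were lower and 4 higher in the knockout. Knockout replicate 1 was the lowest knockout at 12 of the 13, and control replicate 1 the highest control at 11 of the 13. When knockout replicate 1 was left out, the differences shrank for Lamc1 to -0.95, for the Lama4 probes to -0.96 and -0.88, for Lama5 to -0.56, for Lamb2 to -0.26 and for the Lamb1 probes to -1.17 and -0.61. The sign of every tested member probe was kept in each fit that left out 1 array and could test it.

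**Figure D3:**
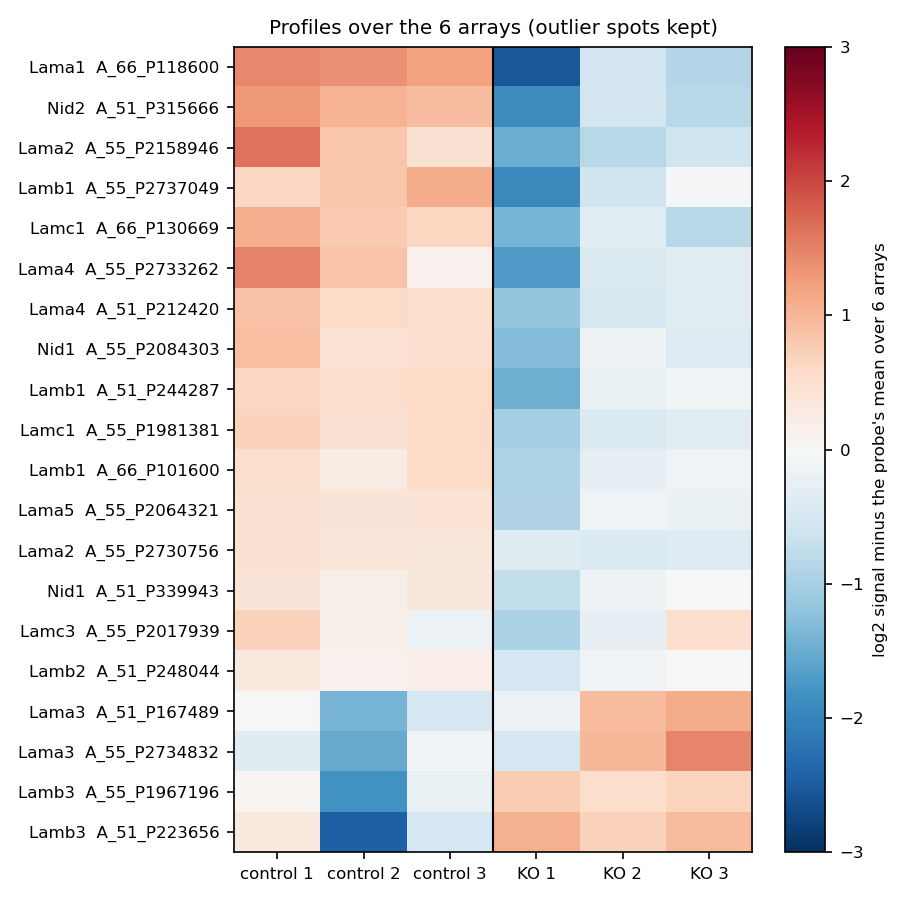
Log2 signal of each probe minus its own mean over the 6 arrays (colour), with outlier spots kept, for the 17 member probes and Lama1, Lamc3 and Nid2, ordered by the difference between genotypes; columns are control replicates 1 to 3 and Islr knockout (KO) replicates 1 to 3. KO 1 is the lowest knockout at 12 of the 13 lower member probes, and control 2 is the lowest array at the probes of Lama3 and Lamb3.

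All 6 arrays were on 1 slide, with the controls in one row and the knockouts in the other, so slide row and genotype cannot be told apart. Slide columns 1 and 3 each held a control and a knockout. Within both columns 15 of 17 member probes kept the sign of their overall difference. The exceptions were the Lama3 probes, with -0.16 and -0.17 in column 1 and 2.99 and 2.5 in column 3. The brighter Lama2 probe differed by -3.12 in column 1 and -1.44 in column 3, and the called Lamc1 probe by -1.69 and -0.77.

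Summed marker levels of several cell types also differed between the genotypes. In these bulk samples fewer cells of a type and less RNA per cell cannot be told apart. The summed level of 10 endothelial markers, each signal taken as a multiple of the 75th percentile of the array, was 13.0 to 14.6 in controls and 4.22 to 9.18 in knockouts. For 10 fibroblast markers the sum was 48.1 to 55.8 in controls and 28.3 to 40.3 in knockouts. Neither range overlapped, and knockout replicate 1 had the lowest sum of both lists, as it had at most of the lower laminin probes. That array also had the lowest sum of the neuron and glia (9.48) and adipocyte (0.211) lists given below. The leukocyte sum was lowest at knockout replicate 3 (22.4). By the brightest tested probe 9 of 9 endothelial genes were lower (median -1.17, 0 called in limma, 8 at an unadjusted p under 0.05, which 14.5% of all tested genes reached lower and 13.7% higher) and 9 of 9 fibroblast genes (median -0.63, 1 called). Their part in the laminin differences was not tested.

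The 10 epithelial markers had a summed level of 23.4 to 64.4 in controls and 74.9 to 98.4 in knockouts. Control replicate 2 was lowest at 23.4, the array that was also lowest for Lama3 and Lamb3. The same array had the lowest sum of the smooth muscle (55.7) and squamous epithelium (9.03) lists given below. All 8 tested epithelial genes were higher (median 1.0, 0 called, 2 at an unadjusted p under 0.05). The 10 smooth muscle markers were at 55.7 to 68.9 in controls and 76.3 to 89.9 in knockouts (8 of 8 higher, median 0.38, 0 called, 2 at an unadjusted p under 0.05), so Lama2 and this muscle list moved in opposite directions. Squamous epithelium markers stood at 9.03 to 11.2 in controls and 11.1 to 12.4 in knockouts, an overlap. That sum rested mainly on 1 bright probe, of Trp63 (mean log2 level 3.21 in controls and 3.35 in knockouts). In this list 5 of 6 tested genes were higher (median 0.47, 0 called, 2 at an unadjusted p under 0.05) and Dsg3 was above background on no array. Neuron and glia markers were at 12.7 to 13.3 in controls and 9.48 to 11.6 in knockouts (6 of 6 lower, median -0.44, 0 called, 2 at an unadjusted p under 0.05). Leukocyte markers were at 27.3 to 27.7 and 22.4 to 26.6 (6 of 8 lower, median -0.62, 1 called). The called gene was S100a8, with a mean log2 level of 1.65 in 2 usable controls and -2.26 in knockouts. The 2 genes that were higher, Itgam (difference 0.27) and Csf3r (0.17), were the brightest of this list. Skeletal muscle markers overlapped, at 2.13 to 2.87 and 2.48 to 4.68 (7 of 9 higher, median 0.13, 2 called higher), and Mb was above background on no array. The part of these lists in the laminin values was not tested.

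Adipocyte markers set control replicate 1 apart: their summed level was 7.85 there and 0.211 to 1.51 on the other 5 arrays (3 of 3 tested genes higher in the knockout, median 0.28, 0 called or at an unadjusted p under 0.05). The same array was the highest control for Lama2 and, with outlier spots kept, for both Lama4 probes. Without it the brighter Lama2 probe differed by -1.62, and its part in the other values was not tested.

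**Figure D4:**
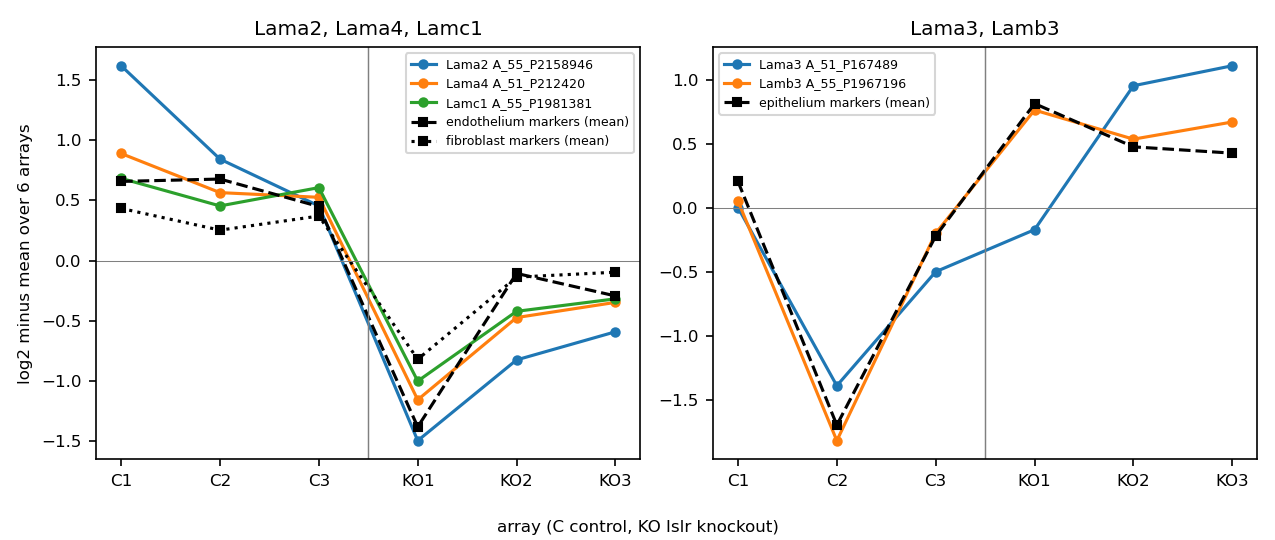
Log2 signal minus the mean over the 6 arrays (y axis) for selected probes and for the mean of marker lists, on control arrays C1 to C3 and Islr knockout arrays KO1 to KO3 (x axis), outlier spots kept; lines only join the values of one series. Lama2, Lama4 and Lamc1 (left) are high in all controls and lowest at KO1, as are the endothelial and fibroblast markers. The neuron and glia, leukocyte and adipocyte markers, not drawn, are also lowest at KO1. Lama3 and Lamb3 (right) are lowest at C2, as are the epithelial markers and, not drawn, those of smooth and skeletal muscle.

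Other basement membrane genes were described from 5 lists holding 42 genes, of which 39 were tested. By the brightest probe 29 were lower and 10 higher, with a median of -0.34; 6 passed, all lower, and 0 passed higher, where over all tested genes 2.47% passed lower and 1.35% higher. None passed without control replicate 2, without control replicate 3 or without knockout replicate 3, where 16, 15 and 15 of 36 tested had an unadjusted p under 0.05 (17.6%, 21.7% and 21.7% of all probes in the same fits). Without control replicate 1 there were 4 calls, 2 of them higher. Besides Lama1 and Nid2 the genes that fell were Col18a1, Smoc1, Fbln2 and Pxdn.

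Col18a1, the collagen XVIII of vascular and epithelial basement membrane, read 2.29, 1.85 and 2.14 in controls and -0.77, 0.42 and 0.50 in knockouts, a difference of -2.04 (SE 0.36, adjusted p 0.0401). It was 1 of 8 tested genes among network collagens and proteoglycans (5 lower, 3 higher, median -0.25). Perlecan, encoded by Hspg2, disagreed between its probes: the dim one (A_55_P1959648) differed by -1.3 (SE 0.20, adjusted p 0.0319), whereas the bright one differed by -0.27 (SE 0.22, adjusted p 0.466). In the list of basement membrane associated proteins 11 of 12 tested genes were lower (median -0.88). Smoc1, a calcium-binding matrix protein, changed most among the genes that passed, from 0.28, 0.30 and 0.28 in controls to -3.14, -1.97 and -2.41 in knockouts (difference -2.79, SE 0.30, adjusted p 0.0184). Fbln2, which binds laminins and nidogen, fell as well, with a difference of -1.16 (SE 0.22, adjusted p 0.0453). So did Pxdn, the peroxidase that crosslinks collagen IV (difference -1.13, SE 0.21, adjusted p 0.0432).

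Of 11 laminin receptors tested, 7 were lower and 4 higher, with a median of -0.05 and 0 called in limma; at an unadjusted p under 0.05, 0 were lower and 3 higher, where 14.5% of all tested genes were lower and 13.7% higher. Itga6, a partner of the epithelial anchoring laminin, was higher by 0.79 at its bright probe (A_55_P2015670, SE 0.20, adjusted p 0.0725). A dim Itga6 probe (A_65_P04508) was also higher in every knockout (adjusted p 0.0523), but only 2 of 3 controls were well above background, so its size is uncertain. Itga3 was higher by 1.24 at its bright probe (A_52_P301804, SE 0.30, adjusted p 0.0659) and by 0.36 at a dim one (A_51_P230405, SE 0.18, adjusted p 0.246). Itgb4, the beta chain that joins Itga6 in hemidesmosomes and a listed receptor singled out for naming after its values were seen, read 2.06, 0.70 and 1.64 in controls and 2.86, 2.59 and 2.67 in knockouts (difference 1.24, SE 0.34, adjusted p 0.0850). Control replicate 2 was lowest here too. Among 5 hemidesmosome and anchoring partners 3 were lower and 2 higher (median -0.06, 0 called by the brightest probe, 1 lower and 1 higher at an unadjusted p under 0.05). A dimmer probe of Plec, the plectin that ties the hemidesmosome to keratin, rose by 1.20 (A_52_P27225, SE 0.22, adjusted p 0.0484; 2 usable knockouts), and its bright probe differed by 0.50 (adjusted p 0.145). The call was lost in the 4 fits that left out 1 array and could test the probe, without knockout replicate 1 or any 1 control (adjusted p 0.0561 to 0.136). Col7a1, the anchoring fibril collagen, was lower by -0.79 (SE 0.20, adjusted p 0.0711).

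**Figure D5:**
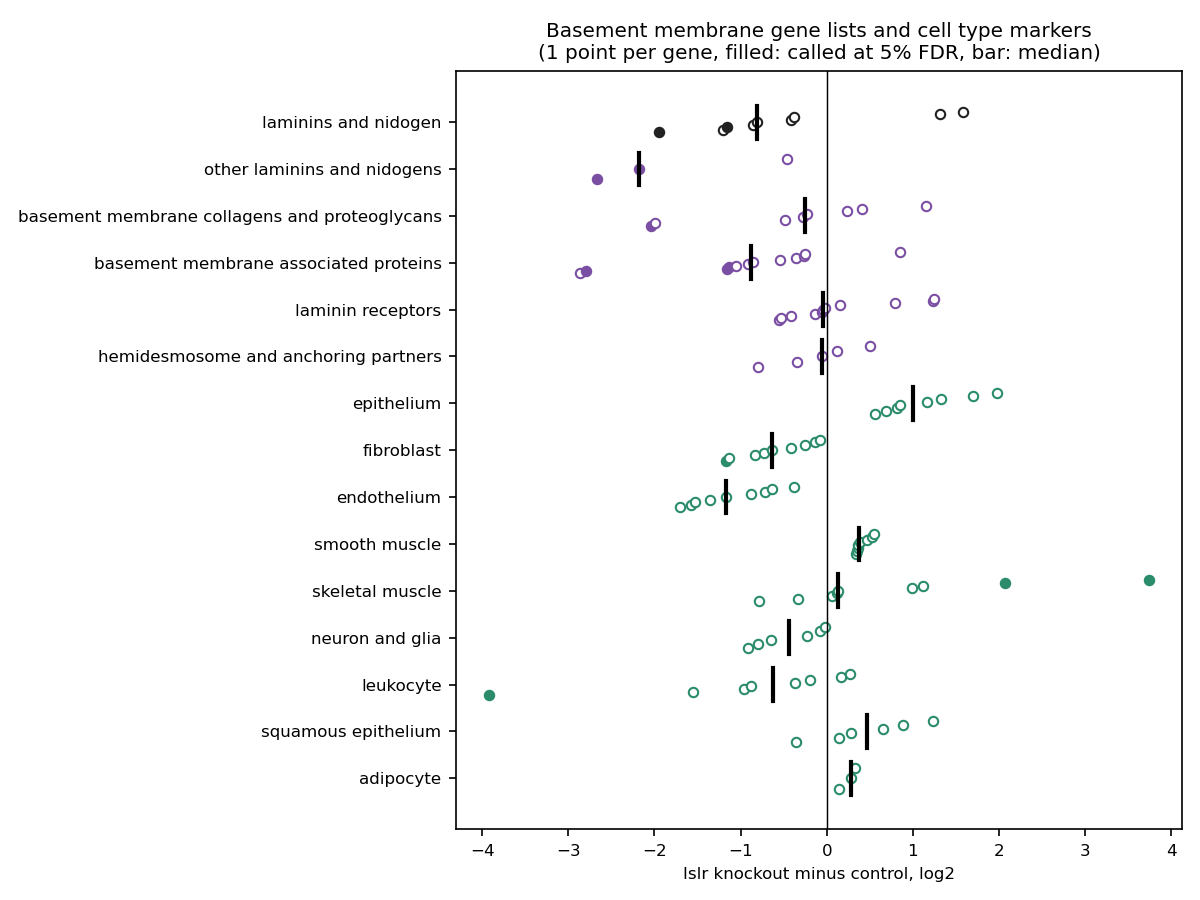
Difference between Islr knockout and control on the log2 scale (x axis) for the brightest tested probe of each gene, by list (rows); filled points passed at a 5% false discovery rate and bars are list medians. The member list spans -1.94 to 1.58, the fibroblast and endothelial markers lie to the left of 0 and the epithelial and smooth muscle markers to the right.

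The profiles most like those of the called probes were sought over the 6 arrays, by the root mean square difference of log2 values after centring each probe on its mean. For Lamc1 they were Pdgfrb, a receptor of pericytes and fibroblasts (0.046), Man1c1 (0.072) and Bmp1, a protease that processes matrix proteins (0.087). For the brighter Lama2 probe they were F13a1 (0.12), Tlr8 (0.14) and Fcgr1 (0.15), genes of macrophages and monocytes. For the dim Lama2 probe, whose knockout values were at background, they were Pros1 (0.055), Pes1 (0.064) and Eef2kmt (0.064). These are the closest of 18887 or 18888 named probes, and likeness over 6 arrays is a description only.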

How the data were processed

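Colon RNA of 3 control and 3 Islr knockout mice was hybridised to 1 array each. The deposited processed signal is a linear intensity after detrending and background subtraction in Agilent Feature Extraction 11.5.1.1, per the file headers (the submitters' processing notes give 10.7), without scaling between arrays. The labels name Cy3, but the files hold the red channel, which was used. Here log2 signals were centred on the 75th percentile of each array and outlier spots left out. Probes well above background on all arrays of a genotype, with at least 2 usable values per genotype, were tested with limma 3.58.1 (R 4.3.3; two-sided, genotype only, Benjamini-Hochberg over 35351 probes). Intervals and standard errors are the moderated ones. The number of arrays limits the precision. The fit was tested on simulated data.

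Probes were named by RefSeq accession in GRCm38.p6 (33762 of 56605, 59.6%). Files use build mm9, so no probe coordinates are given. All members, Islr, Lama1, Lamc3, Nid2, called list genes (up to 10) or the 2 with smallest p per list, and 3 like genes per called member probe were named. A gene of the lists is not reported here. Members and lists were chosen with earlier results of these data known. Alternatives were normexp (offset 50), median scaling, outlier spots, filters, array weights, a variance trend, the deposited value table (intensities matching each array), slide column, probe averaging and leaving out arrays.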

Additional observations from a re-analysis of the deposited data

How the results depend on the processing

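Of 228 refits of the tested member probes, 190 kept direction and side of the threshold, 27 lost a call and 11 gained one (7 of them with array weights), and 0 changed sign. Only the 3 called probes could lose a call. With 1 array left out the brighter Lama2 probe passed in 1 of 6 fits, the dim one in 0 of 6 and Lamc1 in 0 of 6. Under other settings on 6 arrays they passed in 8 of 10, 3 of 9 and 8 of 10 fits. The count of called member probes was 3 of 15 on all arrays and 10 of 15 with array weights (4 higher). It was 5 of 17 with outlier spots kept (1948 of 40172 over all probes). With no filter on dim probes and with the slide column as a block it was 0 of 15. At an unadjusted p under 0.05 in limma these fits had 12 and 7 member probes, against 21.5% and 23.3% of all probes. It was 0 to 1 when 1 array was left out. Then 8 to 12 of the 11 to 15 tested member probes had an unadjusted p under 0.05 in limma. That was 71.4% to 80% of them, against 17.6% to 29.5% of all probes in the same fits. Over all probes the count was 1403, and 7320 with array weights, 2249 with median scaling, 2558 and 2773 with normexp at the 75th percentile and with quantile normalization, 484 with no filter, 0 with the slide column as a block (8244 at an unadjusted p under 0.05; 1 residual degree of freedom at most) and 40 to 2114 with 1 array left out. With normexp and the 75th percentile 1306 of 2558 calls were higher, against 548 of 1403. For other basement membrane genes the count was 6, and 18 with array weights (6 higher), 1 with no filter, 0 with the slide column as a block (17 at an unadjusted p under 0.05) and 0 to 4 with 1 array left out (2 of 4 higher without control replicate 1). Islr had an adjusted p of 0.136 with the slide column as a block (difference -2.55), and its difference ranged from -2.58 to -2.34 with 1 array left out. The bright Hspg2 probe turned to 0.071 with the slide column as a block. The cause of these shifts was not tested. No paired analysis was possible because the labels give the animals of both genotypes no shared numbers. Islr could not be tested without control replicate 2 or 3. Outlier spots left 1 probe each of Lamb1 and Lamc1 untested, and a probe each of Lama2 and Nid1 was not well above background on every knockout array.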
